A study of Capra hircus with 6 samples.

Results

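Perineuronal net genes were followed in the hypothalamus of female goats before and at puberty. The set comprised 10 genes given by their goat gene symbols, namely the lecticans ACAN, BCAN, NCAN and VCAN, the link proteins HAPLN1, HAPLN2 and HAPLN4, the tenascins TNR and TNC, and the receptor phosphatase PTPRZ1. Of these, 9 were found among the 20225 genes of the mRNA table, with 13 transcripts in all. HAPLN2, the link protein known from the nodes of Ranvier, carries a gene identifier in the reference that matched no transcript of the table, and it was not analysed here. All 9 measured genes passed the minimum mean level of 0.1 FPKM set for testing. FPKM is the number of fragments scaled by transcript length and by the mapped fragments of a library, and the FPKM of a gene was summed over its transcripts.

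The study compared 3 pubertal Anhuai goats, aged 4.5 to 5.0 months, with 3 prepubertal Anhuai goats, aged 2.5 to 3.0 months. All goats were untreated females kept under the same conditions, and 1 library of total RNA depleted of ribosomal RNA was made per hypothalamus. Where a gene is given by 3 values per stage, they are in the order of replicates 1, 2 and 3. Puberty was judged from estrus detection with male goats and the appearance of the vulva, and the pubertal goats were killed in the late follicular phase. Age, body growth and cycle phase therefore differed together with the stage and cannot be told apart from it. The study gives read totals for its libraries, which were not used here, and low values were not multiples of a common step, so the number of reads behind a single value could not be recovered. The 6 libraries had close medians, from 3.80 to 3.83 of log2(FPKM + 1) over genes averaging 1 FPKM or more. In bulk tissue, fewer cells of a type and less RNA per cell cannot be told apart. Of 14 listed hypothalamic markers, 8 were tested and present, among them GNRH1 at 5.34 to 16.0 FPKM, while AVP was listed at 0 in all 6 libraries and 5 others matched no gene of the table.

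A perineuronal net is a dense extracellular matrix that wraps the cell body and proximal dendrites of certain neurons, best known from fast-spiking interneurons that express parvalbumin. Its backbone is hyaluronan. Lecticans bind hyaluronan at one end, link proteins lock that bond, and tenascin-R joins the other ends of the lecticans into a lattice. Nets appear as circuits mature, they are known for limiting plasticity at the end of critical periods, and in the hypothalamus they have been described around neurons of the arcuate nucleus. Most net components are also part of the looser matrix between cells, so their RNA in bulk tissue does not count nets.

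PTPRZ1 and BCAN were the most abundant of the 9 genes and ACAN was the least abundant. The means over all 6 libraries were 99.2 FPKM for PTPRZ1, 76.9 for BCAN, 34.2 for NCAN, 17.6 for VCAN, 14.7 for TNR, 10.96 for TNC, 4.36 for HAPLN1, 2.30 for HAPLN4 and 0.719 for ACAN. This order held in each of the 6 libraries for every neighbouring pair. The ranges over libraries overlapped for VCAN with TNR and for TNR with TNC, and they were apart for the other 6 neighbouring pairs. PTPRZ1 lay above 94.0% of the 16397 genes tested and BCAN above 91.8%, whereas HAPLN4 lay above 22.5% and ACAN above 11.6%. Both leading genes are known from glia, and aggrecan, the lectican that marks most nets, was near the lower end of the genes tested.

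Between the stages, 8 of the 9 genes had a higher mean in the pubertal goats, and none of the differences passed the test. The test was limma on log2(FPKM + 1), and log2 fold changes are pubertal minus prepubertal on that scale, which understates the change of genes with low values. At an adjusted p-value under 0.05 there were 0 of 9 genes, against 0 of all 16397 genes tested (0.0%). Without adjustment, 0 of 9 had a p-value under 0.05, where 5.16% of all genes passed, 3.51% higher and 1.65% lower in the pubertal libraries. A log2 fold change above 0 was found in 8 of 9 net genes and in 49.8% of all genes tested. The median log2 fold change was 0.14 over the 9 genes and -0.00065 over all genes. With quantile normalization 7 of 9 were above 0, since HAPLN1 turned to -0.05, and the genes passing an unadjusted p under 0.05 were 55.1% higher ones instead of 68.0%.

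**Figure D1:**
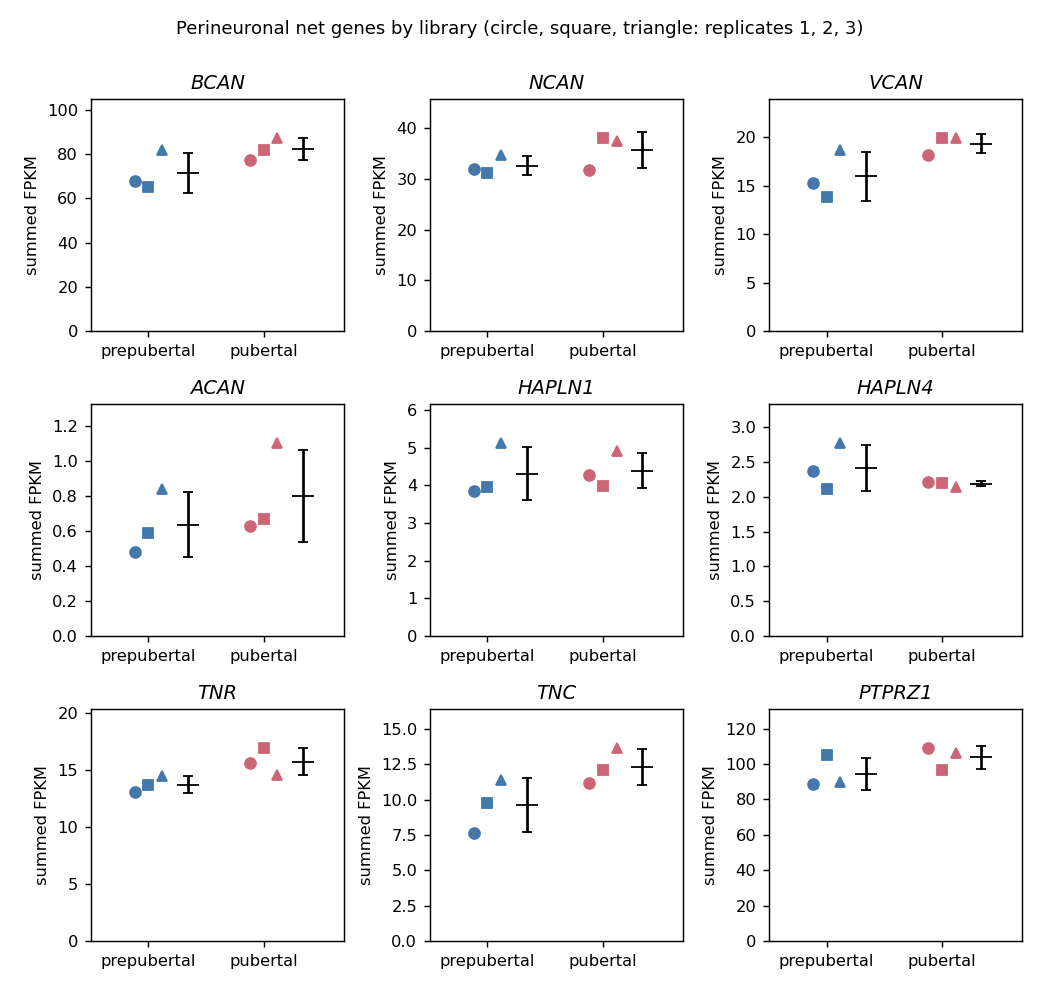
Summed FPKM of the 9 measured perineuronal net genes in each library, with prepubertal goats in blue and pubertal goats in red, and the mean ± SD of each stage (n = 3) in black. The stages overlap in every panel except that of TNR, where the lowest pubertal value of 14.54 FPKM lies just above the highest prepubertal value of 14.46 FPKM.

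The lecticans are chondroitin sulfate proteoglycans that bridge hyaluronan and tenascins. BCAN, brevican, is made by astrocytes and oligodendrocyte precursors. It was at 77.3, 82.0 and 87.3 FPKM at puberty and 67.8, 65.1 and 81.7 FPKM before it. Prepubertal replicate 3 lay inside the pubertal range, and the other prepubertal goats lay below it. Pubertal goats averaged 82.2 ± 4.98 FPKM and prepubertal goats 71.5 ± 8.93 FPKM (SD, n = 3 each), a ratio of 1.15. On the log2 scale BCAN differed by 0.20 with a standard error of 0.11 and an interval of -0.04 to 0.45 (95%, adjusted p = 0.962 from limma).

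VCAN, versican, is the lectican of the looser matrix and is also made by oligodendrocyte precursors and fibroblasts. It was at 18.2, 19.9 and 19.9 FPKM at puberty and 15.3, 13.9 and 18.7 FPKM before it. As for BCAN, only prepubertal replicate 3 reached the pubertal range. For VCAN the log2 fold change was 0.27 with a standard error of 0.12 and an interval of -0.01 to 0.55, an unadjusted p of 0.0543 and an adjusted p of 0.962 in limma. The table held a single VCAN transcript, of 11597 nt, so the known splice forms of versican were not told apart.

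NCAN, neurocan, is a brain lectican that is abundant during development. It was at 31.8, 38.1 and 37.6 FPKM at puberty and 32.1, 31.2 and 34.8 FPKM before it. Pubertal replicate 1 fell among the prepubertal goats, and the log2 fold change was 0.13 with an interval of -0.10 to 0.35. ACAN, aggrecan, is made mainly by the neurons that carry a net. It was at 0.628, 0.671 and 1.10 FPKM at puberty and 0.483, 0.587 and 0.842 FPKM before it. Replicate 3 was the highest of each stage, and the stages overlapped. The log2 fold change of ACAN was 0.13 with an interval of -0.20 to 0.47, and it was 0.28 with a pseudocount of 0.1.

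The make-up of the lectican group was alike in the 6 libraries. BCAN held 58.3% to 60.5% of the summed lectican FPKM, NCAN 24.8% to 28.1%, VCAN 12.5% to 14.2% and ACAN 0.418% to 0.757%, and the stages overlapped in each share. The 4 lecticans summed to 138 ± 9.25 FPKM at puberty and 121 ± 13.4 FPKM before it (SD, n = 3 each), and prepubertal replicate 3, at 136 FPKM, lay among the pubertal goats.

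Link proteins resemble the hyaluronan-binding end of a lectican and hold it on the chain. HAPLN1, the link protein of most nets, was at 4.29, 3.98 and 4.91 FPKM at puberty and 3.86, 3.96 and 5.13 FPKM before it. The stages covered nearly the same range, and the log2 fold change of 0.03 had an interval of -0.29 to 0.34. Leaving out pubertal replicate 3, prepubertal replicate 1 or prepubertal replicate 2 turned it below 0. Of its 2 transcripts, the one of 2720 nt held most of the level, at 3.28 to 4.81 FPKM, and the other had 0.140 to 0.678 FPKM.

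HAPLN4, a link protein of nets in the brainstem and cerebellum, was at 2.21, 2.20 and 2.15 FPKM at puberty and 2.37, 2.11 and 2.77 FPKM before it. It was the 1 measured gene with a lower pubertal mean. Its log2 fold change was -0.10 with an interval of -0.37 to 0.18, and it was -0.02 without prepubertal replicate 3.

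Set against the summed lecticans, the link proteins made up less in the pubertal libraries. Means at puberty and before it were 4.40 and 4.32 FPKM for HAPLN1 and 2.19 and 2.42 FPKM for HAPLN4. Those of the lectican sum were 138 and 121 FPKM, and the stages overlapped in each of these levels. HAPLN1 and HAPLN4 together came to 5.08%, 4.40% and 4.84% of the summed lectican FPKM in pubertal replicates 1, 2 and 3. In prepubertal replicates 1, 2 and 3 they came to 5.39%, 5.48% and 5.81%. The stages did not overlap, and the means were 4.77 ± 0.349% and 5.56 ± 0.218% (SD, n = 3 each). This ratio was formed after the values of the single genes were seen and was not tested, and HAPLN2 is not in it. How many other ratios of genes keep the stages apart was not counted. A scaling that multiplies all FPKM of a library by 1 factor leaves the link protein share as it is.

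By RefSeq annotation of goat assembly ARS1.2, each link protein gene is the direct protein coding neighbour of a lectican gene. The pairs are HAPLN1 with VCAN, HAPLN2 with BCAN, HAPLN4 with NCAN, and HAPLN3 with ACAN. HAPLN1 and HAPLN4 lay far below their neighbours in level. HAPLN1 had 4.36 FPKM beside 17.6 FPKM of VCAN, and HAPLN4 had 2.30 FPKM beside 34.2 FPKM of NCAN. Their log2 fold changes were 0.03 and 0.27 in the pair of HAPLN1 and VCAN, and -0.10 and 0.13 in the pair of HAPLN4 and NCAN. HAPLN3, a link protein found in many tissues, was close to its neighbour ACAN in level, at 0.4998, 0.879 and 2.17 FPKM at puberty and 0.758, 0.305 and 0.888 FPKM before it.

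Tenascins are large proteins with several arms that bind lecticans. TNR, tenascin-R, cross-links lecticans in the mature net. It was at 15.6, 16.9 and 14.5 FPKM at puberty and 13.0, 13.6 and 14.5 FPKM before it. TNR was the 1 of 9 genes whose stages did not overlap, by a margin of less than 1% of its level, and 5.91% of all genes lay wholly higher in the pubertal libraries. TNR had a log2 fold change of 0.18 with a standard error of 0.10 and an interval of -0.04 to 0.41 (adjusted p = 0.962 from limma).

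TNC, tenascin-C, belongs to developing and reactive matrix and is made by astrocytes, radial glia and fibroblasts. It was at 11.2, 12.1 and 13.7 FPKM at puberty and 7.61, 9.78 and 11.4 FPKM before it. Prepubertal replicate 3 lay inside the pubertal range and the other prepubertal goats lay below it. TNC had the highest ratio of the 9 genes, 1.28, with 12.3 ± 1.25 FPKM at puberty and 9.60 ± 1.91 FPKM before it (SD, n = 3 each). Its log2 fold change was 0.34 with a standard error of 0.15 and an interval of -0.005 to 0.69. Without prepubertal replicate 1 it was 0.20, below the 0.25 of VCAN in the same fit. The unadjusted p was 0.0524 and the adjusted p 0.962 in limma. The ratio of TNR to TNC was between 1.06 and 1.71 and overlapped between the stages.

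**Figure D2:**
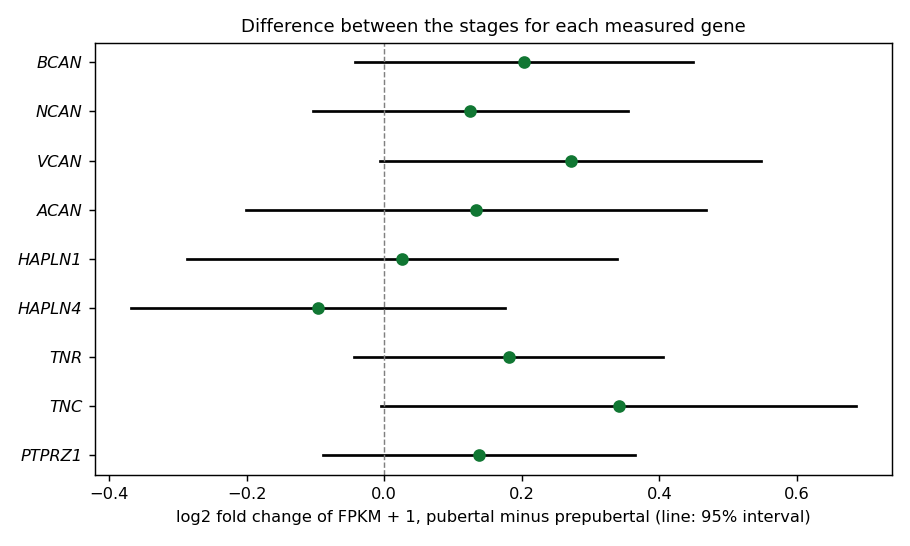
Log2 fold change of FPKM + 1 for each measured gene, pubertal minus prepubertal, with its 95% interval from limma over 6 libraries. All 9 intervals include 0, and the largest value is 0.34 for TNC, the smallest -0.10 for HAPLN4.

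Leaving out single libraries moved the net genes both toward and away from the threshold. Prepubertal replicate 3 was the highest prepubertal library for 8 of the 9 genes, with PTPRZ1 as the exception. Without it, BCAN, VCAN and TNC had an unadjusted p under 0.05 (0.0238, 0.0117 and 0.0181), against 4.29% of all genes in that fit, and the median log2 fold change of the 9 genes was 0.22. Without pubertal replicate 1, NCAN and TNC did (0.0341 and 0.0496), against 13.5% of all genes in that fit. In the other direction, TNC went to 0.20 without prepubertal replicate 1 (unadjusted p of 0.197). VCAN and BCAN went to 0.18 and 0.14 without prepubertal replicate 2 (0.192 and 0.281), and NCAN to 0.08 without pubertal replicate 2 (0.492). The adjusted p stayed above 0.05 for all 9 genes in each of these fits.

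**Figure D3:**
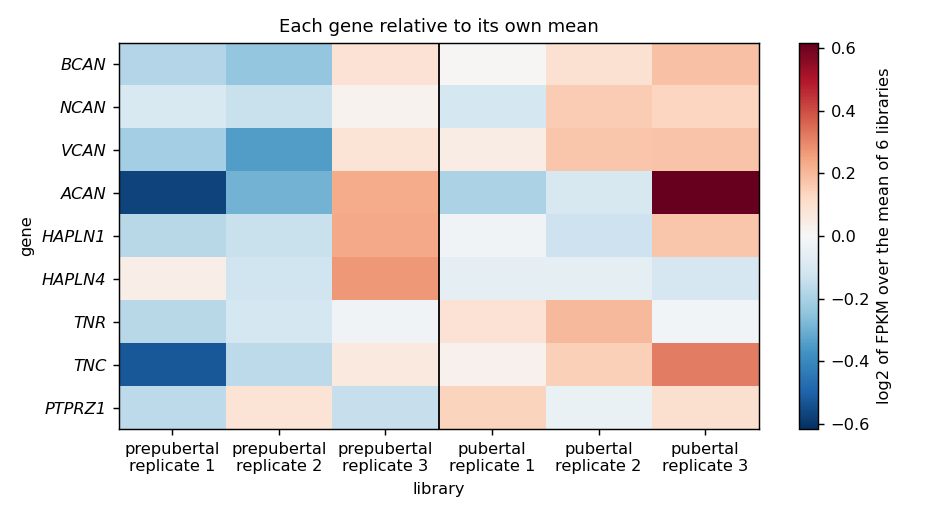
Log2 of the FPKM of each gene over its own mean of the 6 libraries, with genes in rows and libraries in columns. Red cells gather in pubertal replicate 3, which had the highest value for 4 of 9 genes, and in prepubertal replicate 3, while prepubertal replicates 1 and 2 hold the lowest value for all 9 genes.

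PTPRZ1 is a receptor tyrosine phosphatase whose extracellular part carries chondroitin sulfate chains. Phosphacan, its secreted form, binds tenascins and is a net component, and shorter receptor forms are known that lack much of the chain-bearing region. The gene is expressed by astrocytes, radial glia and oligodendrocyte precursors. Its summed level was 109, 96.5 and 106 FPKM at puberty and 88.6, 105 and 89.8 FPKM before it. Prepubertal replicate 2 lay inside the pubertal range, and the log2 fold change was 0.14 with an interval of -0.09 to 0.36. It was 0.22 without prepubertal replicate 2 and 0.05 when only the most abundant transcript was taken.

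The sum covered 4 transcripts that fall into pairs by length. A long pair had 8033 and 8012 nt and a short pair had 5450 and 5429 nt, so that each pair differed by 21 nt and the pairs by 2583 nt, both multiples of 3. Exons are not given with the values, so the pairs are named here by length only. The long pair held 45.8% to 51.4% of the PTPRZ1 FPKM and the short pair the rest, with overlap between the stages. The FPKM of the long pair was 51.1, 48.4 and 54.5 in pubertal and 41.3, 48.1 and 45.8 in prepubertal replicates 1, 2 and 3, so the pubertal goats lay higher, by a narrow margin. The short pair, at 48.1 to 58.0 FPKM in pubertal and 44.1 to 56.9 FPKM in prepubertal goats, overlapped.

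Within the pairs, the estimated split between the transcripts lay farthest out in pubertal replicate 1. No PTPRZ1 transcript passed the adjusted threshold between the stages. The transcript of 8012 nt, XM_013963415.1, was at 12.1, 3.54 and 3.43 FPKM at puberty and 2.14, 2.25 and 0.792 FPKM before it. All pubertal goats lay above all prepubertal goats, and pubertal replicate 1 stood far above the rest. The log2 fold change was 1.28 with a standard error of 0.46 (unadjusted p of 0.0257 and adjusted p of 0.972, limma over 23821 transcripts), and it was 0.77 without pubertal replicate 1. It was the 1 transcript of the 13 with an unadjusted p under 0.05, where 4.87% of all transcripts passed and 0.0% passed the adjusted threshold. That unadjusted p was 0.0823 without prepubertal replicate 3, at a log2 fold change of 1.01, and 0.0532 with no minimum level.

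The transcript of 5429 nt, XM_005679397.2, ran the other way. It was at 1.21, 7.51 and 7.59 FPKM at puberty and 8.47, 9.54 and 9.03 FPKM before it, again with no overlap. The log2 fold change was -0.88 with a standard error of 0.50 (adjusted p = 0.972 from limma), and it was -0.23 without pubertal replicate 1. Stages that do not overlap were found in 9.56% of all transcripts tested. The 2 longer transcripts, XM_005679395.2 of 8033 nt and XM_005679396.2 of 5450 nt, were at 39.0 to 51.1 and 35.0 to 56.8 FPKM and overlapped between the stages.

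As a share of its pair, the transcript of 8012 nt made up 23.8%, 7.32% and 6.30% in pubertal and 5.19%, 4.67% and 1.73% in prepubertal replicates 1, 2 and 3. The transcript of 5429 nt made up 2.09%, 15.6% and 14.7% in pubertal and 17.9%, 16.8% and 20.5% in prepubertal replicates 1, 2 and 3. The opposite shifts cancelled. Added up, the shorter transcripts of both pairs held 10.4% to 12.2% of PTPRZ1 in pubertal and 10.9% to 11.99% in prepubertal goats. The difference of the means was 8.59 percentage points for the transcript of 8012 nt and -7.58 for that of 5429 nt, and without pubertal replicate 1 it was 2.94 and -3.22. Transcripts that share sequence also share reads, so the split is an estimate of the authors' software. These groupings were chosen after the values were seen and were not tested.

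**Figure D4:**
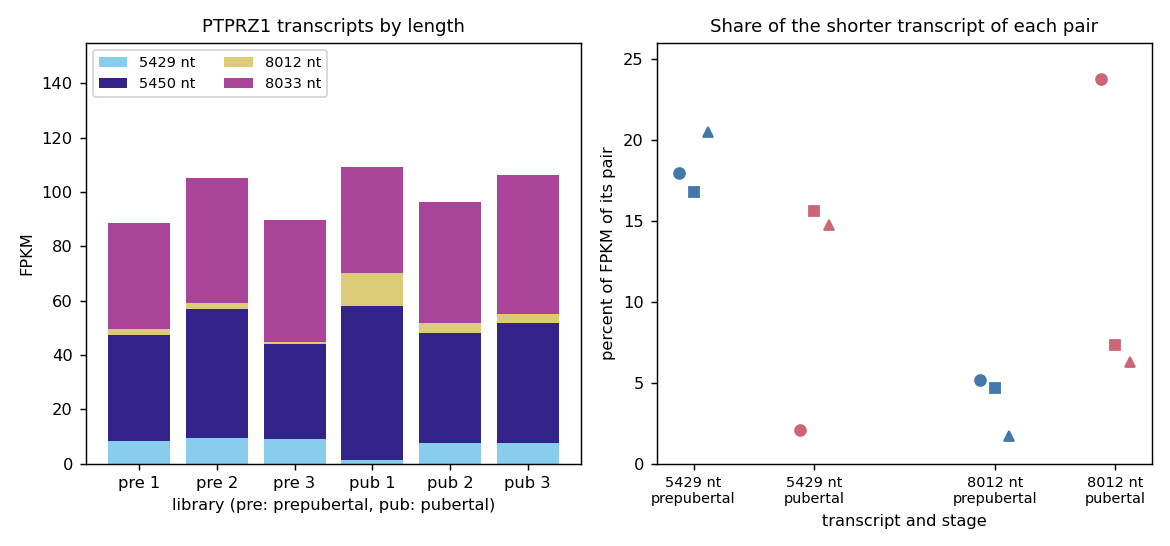
Left, FPKM of the 4 PTPRZ1 transcripts stacked by library. Right, the share of the shorter transcript in each pair, with circles, squares and triangles for replicates 1, 2 and 3, where the transcript of 8012 nt is higher and that of 5429 nt lower in all 3 pubertal libraries and pubertal replicate 1 lies farthest out in both.

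The net is also shaped by the enzymes that build its hyaluronan and sugar chains and by those that cut it. In the hyaluronan list, 11 of 12 listed symbols were tested (CEMIP2 is another symbol of TMEM2, which was tested). Of them 10 had a log2 fold change above 0, 1 had an unadjusted p under 0.05 (5.16% of all genes did), and the median was 0.21. That gene was HYAL2, a hyaluronidase of the cell surface, at 7.79, 7.12 and 9.49 FPKM at puberty and 6.04, 6.26 and 5.99 FPKM before it (adjusted p = 0.870, limma). HAS2, a synthase of long hyaluronan, had a log2 fold change of 0.08 with an interval of -0.20 to 0.37.

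The enzymes of chondroitin sulfate chains were closer to 0. Of 21 listed genes 19 were tested, 12 were above 0, none had an unadjusted p under 0.05, and the median log2 fold change was 0.05. The most abundant was B3GAT3, which completes the linker of the chain, at 29.3, 42.8 and 29.8 FPKM at puberty and 40.9, 32.1 and 38.6 FPKM before it.

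Proteases of the matrix and their inhibitors held the most genes at an unadjusted p under 0.05 among the lists on the net, 5 of the 17 tested of 20 listed. All 5 were higher in the pubertal goats, where 3.51% of all genes were, while none passed the adjusted threshold. The list was written with earlier results of these data known, so its count is no independent comparison with that share. Leptomeningeal and fibroblast markers, which include DCN, were also higher, at a median log2 fold change of 1.16, and their part in the protease levels was not tested. The median log2 fold change of the protease list was 0.10. MMP2, a gelatinase, was at 9.76, 9.75 and 14.4 FPKM at puberty and 5.09, 5.23 and 6.94 FPKM before it, which is 0.86 on the log2 scale with a standard error of 0.18 (limma, adjusted p = 0.660). ADAMTS9, a protease known to cut aggrecan and versican, was at 4.67 ± 0.843 FPKM at puberty and 2.79 ± 0.310 FPKM before it (SD, n = 3 each), with no overlap and 0.58 on the log2 scale. MMP14, which activates MMP2, had a log2 fold change of 0.62. ADAMTS1 and TIMP3 were the other genes past that level. ADAMTS4 and ADAMTS5, which cut brevican and aggrecan, had log2 fold changes of 0.05 and -0.08 with intervals of -0.35 to 0.45 and -0.33 to 0.17.

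Receptors and ligands bound by the net had a median log2 fold change of 0.02 over the 20 tested of 22 listed and none at an unadjusted p under 0.05. CNTN1, contactin 1, which binds PTPRZ1 and tenascin-R, was the most abundant, at 206, 159 and 167 FPKM at puberty and 202, 188 and 191 FPKM before it. Of the proteoglycans and relatives outside the set, 12 of 13 were tested, with a median log2 fold change of 0.21. DCN and BGN had an unadjusted p under 0.05, where 5.16% of all genes did. They encode decorin and biglycan, small proteoglycans of connective tissue, and had log2 fold changes of 1.24 and 1.05 (adjusted p = 0.733 and 0.938 from limma).

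**Figure D5:**
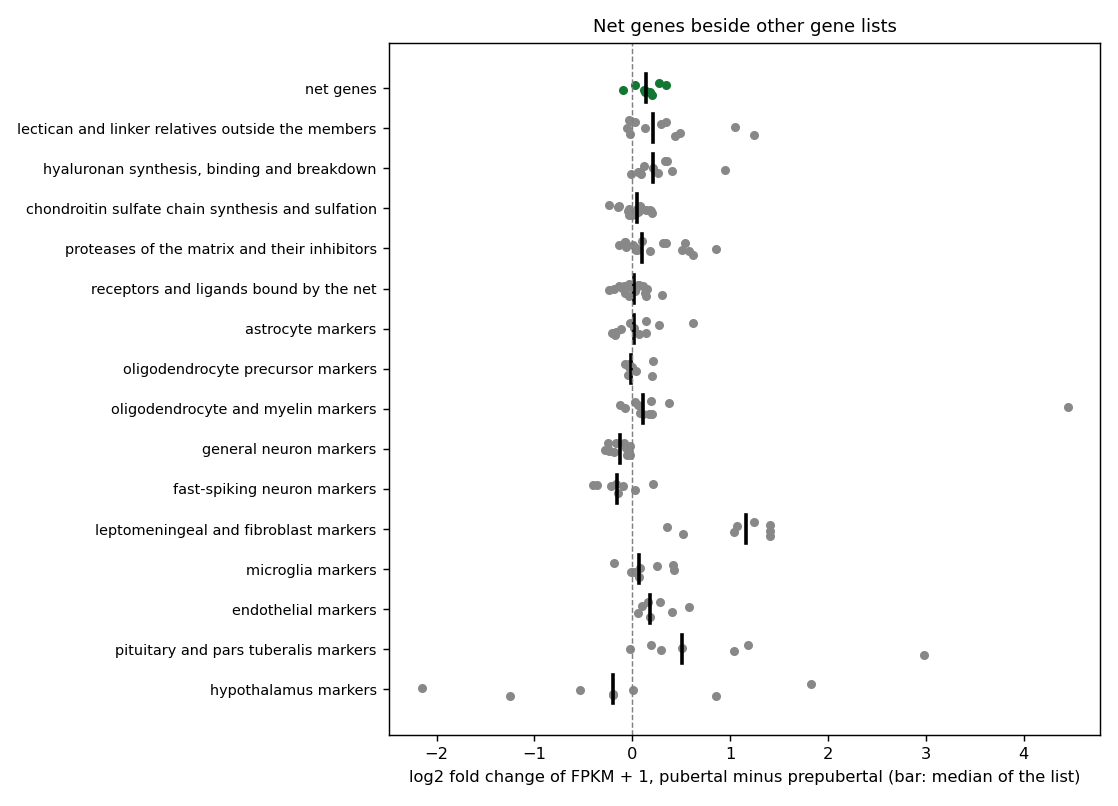
Log2 fold change of each tested gene by list, pubertal minus prepubertal, with the median of each list as a bar. The net genes have a median of 0.14, the leptomeningeal and fibroblast markers lie farthest to the right with a median of 1.16, and the general neuron markers have a median of -0.12.

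Markers of the cells that make or carry the net were set beside it. Oligodendrocyte precursor markers had a median log2 fold change of -0.02 over 8 tested genes and summed to 143 to 144 FPKM in pubertal and 138 to 146 FPKM in prepubertal goats, with PDGFRA the most abundant. Astrocyte markers had a median of 0.02 over 11 genes, 6 of them above 0, and summed to 7147 to 7475 and 7108 to 7572 FPKM. ALDH1L1 had an unadjusted p under 0.05, at a log2 fold change of 0.62, where 3.51% of all genes passed with a higher pubertal level. ALDOC went the other way, at -0.21 with no overlap of the stages. All 12 general neuron markers had a log2 fold change below 0, with a median of -0.12. SLC32A1 had an unadjusted p under 0.05, where 1.65% of all genes passed with a lower pubertal level. Fast-spiking neuron markers had a median of -0.15 over 8 genes, none at an unadjusted p under 0.05, and TAC1, the precursor of substance P, was the most abundant. PVALB, parvalbumin, was at 4.60, 4.94 and 3.31 FPKM at puberty and 7.55, 4.23 and 5.81 FPKM before it, a log2 fold change of -0.36 with an interval of -0.83 to 0.10. The myelin markers, with MBP the most abundant and listed at 0 in 1 library, overlapped between the stages in all 11 tested genes.

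Markers of tissue around the hypothalamus were set beside the net genes as well. All 8 tested leptomeningeal and fibroblast markers had a log2 fold change above 0, as had 49.8% of all genes. The stages did not overlap for 5 of them, where 5.91% of all genes lay wholly higher at puberty. The stages overlapped for 3, LUM, PDGFRB and SLC6A13. The summed level of the markers was 128 to 325 FPKM in pubertal and 55.7 to 95.5 FPKM in prepubertal goats. The marker genes DCN, COL1A2 and COL1A1 had log2 fold changes of 1.24, 1.41 and 1.41. The sum was highest in pubertal replicate 3, at 325 FPKM, which was also the highest library for TNC, VCAN, BCAN and ACAN, and lowest in prepubertal replicate 1, at 55.7 FPKM, which was the lowest library for 5 of the 9 net genes, TNC and ACAN among them. VCAN was at 19.9 FPKM in pubertal replicates 2 and 3 alike. VCAN and BCAN were lowest in prepubertal replicate 2, where the sum was 94.2 FPKM. The sum was 147 FPKM in pubertal replicate 1 and 95.5 FPKM in prepubertal replicate 3. The former was nonetheless lower than the latter for TNC (11.2 and 11.4 FPKM), VCAN (18.2 and 18.7), BCAN (77.3 and 81.7) and ACAN (0.628 and 0.842). Without pubertal replicate 3 the log2 fold changes were 0.27 for TNC, 0.25 for VCAN, 0.16 for BCAN and 0.02 for ACAN. Pituitary and pars tuberalis markers summed to 53.0 to 66.8 FPKM in pubertal and 3.75 to 21.1 FPKM in prepubertal goats. CGA, the alpha subunit of pituitary hormones, was in the lead at a log2 fold change of 2.98. TSHB at 1.19 and PITX1 at 0.51 also lay wholly higher in the pubertal goats, where 5.91% of all genes did. The stages overlapped for the other 4 tested, among them LHB at -0.03 and GH1 at 1.045. GH1 was at 7.79 FPKM in pubertal replicate 3 and at 0 in every other library. Endothelial and microglia markers had medians of 0.18 and 0.07, with 7 of 7 and 6 of 8 tested genes above 0. An unadjusted p under 0.05 with a higher pubertal level, which 3.51% of all genes had, was found for VWF at 0.58 in the former. In the latter it was found for C1QA, C1QB and ITGAM at 0.42, 0.42 and 0.25. The 8 tested hypothalamic markers had a median of -0.195. Of them GNRH1, POMC and AGRP had an unadjusted p under 0.05, where 5.16% of all genes passed. Their log2 fold changes were 0.85, 1.83 and -2.15, and the stages overlapped for POMC and AGRP. POMC was at 34.4, 85.1 and 429 FPKM at puberty and 47.4, 22.9 and 24.3 FPKM before it. No gene of these lists had an adjusted p under 0.05. The part of these tissues in the levels of the net genes was not tested.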

How the data were processed

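Hypothalamus of 3 pubertal and 3 prepubertal goats was studied, 1 library per goat. Per the labels and the methods of the study, reads were aligned with TopHat, assembled with Scripture and Cufflinks 2.1.1 and compared with Cuffdiff 2.1.1, and the genome build is not given in the sources used here. The authors deposited FPKM per transcript and library. Their comparison table was used for gene identifiers and lengths. It also holds group means, fold changes, p-values and q-values, which were not used. The lncRNA files were not used either. FPKM was summed by gene, and 94.6% of 20225 genes had a RefSeq symbol. Rows without an identifier (1) were left out, and 0 per-sample columns were unused.

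Genes with a mean of at least 0.1 FPKM were tested with limma 3.58.1 in R 4.3.3 (trend, two-sided) on log2(FPKM + 1), with Benjamini-Hochberg adjustment over all genes and a threshold of 0.05, and transcripts likewise. The step was tested on simulated data. Other steps used Python 3.11.15, pandas 2.3.3 and scipy 1.17.1. An exact permutation test of 3 goats against 3 cannot go below 0.1 and was not run. The genes and lists were chosen with earlier results of these data known. Named were all members, those of their transcripts averaging 1 FPKM or more, and per list up to 3 genes with the smallest unadjusted p under 0.05 or else the most abundant. Outside this rule, ADAMTS1, ADAMTS4, ADAMTS5, ALDOC, AVP, GH1, HAPLN3, HAS2, LHB, LUM, PDGFRB, PVALB, SLC6A13 and TIMP3 were added after their values were seen. Alternatives were other pseudocounts, minimums, scalings, transcript choices, a fit without trend, a replicate block, and leaving out each library. No protein, promoter or transcript sequence of these genes was used here.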

Additional observations from a re-analysis of the deposited data

How the results depend on the processing

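Of 134 refits of the 9 net genes, 130 kept their direction, and no gene had an adjusted p under 0.05 in any of them. The other 4 were HAPLN1, at -0.0541 with quantile normalization and between -0.0427 and 0.132 with each library left out. The number of net genes with an unadjusted p under 0.05 was 0 in the comparison as reported. It was 1, TNC, with the replicate number as a block, with a pseudocount of 0.1, with a minimum mean of 1 FPKM (where ACAN was not tested) and without transcripts shorter than 300 nt, and it ran from 0 to 3 with each library left out. The median log2 fold change of the net genes ran from 0.11 to 0.22. Same-numbered goats did not deviate together (Pearson r over 14081 genes of -0.03, -0.11 and 0.09 for numbers 1, 2 and 3, which are not independent replicates), so the replicate block shares only a number, and it moved the count over all genes from 846 to 847. That count was 502 without prepubertal replicate 1 and 2223 without pubertal replicate 1. An adjusted p under 0.05 was found for 1 gene of the whole table with the block and for up to 4 genes with a library left out, none of them a net gene. Single transcripts turned in direction as well. XM_013965767.1 of HAPLN1 went to -0.0098 with quantile normalization and ran from -0.0632 to 0.159 with each library left out, and XM_005679395.2 of PTPRZ1 ran from -0.0471 to 0.144. The link protein share of lectican FPKM, an alternative added after the data were seen, differed by -0.94 to -0.60 percentage points with each library left out and by -0.72 with the most abundant transcript only. The number of reads behind a single value could not be recovered, so the part of depth in these results was not tested.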
